A study of Mus musculus with 6 samples.

Results

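The 5 genes described here, Cubn, Amn, Lrp2, Lrpap1 and Dab2, encode cubilin, its membrane partner amnionless, megalin, a chaperone of megalin and an adaptor of the endocytic coat. They were chosen by gene symbol, with the difference between mutant and control lungs already known, so every value of theirs below is a description. Where an adjusted p or a q-value of a member is given, it is not read as a test. All 5 were on the array, each with 1 probe set, among 21950 gene symbols on 28815 probe sets. Levels were measured on 6 arrays, each of the whole lung of a mouse embryo at stage E14.5: 3 controls that carried Shh-cre, and 3 mutants that carried Shh-cre with both alleles of Foxp1 and of Foxp4 floxed (Shh-cre:Foxp1flox/flox:Foxp4flox/flox). Embryos of both groups were of a mixed C57BL/6 and 129X1,129S1 background and all carried Shh-cre, which is active in the lung epithelium, so mesenchyme, vessels and blood in the same samples keep both genes. The study asked how the loss of these forkhead transcription factors alters differentiation of secretory epithelium.

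Cubilin is a large peripheral protein with no membrane span of its own. It reaches the apical surface bound to amnionless, which spans the membrane, and together they form the receptor that takes up the complex of intrinsic factor and vitamin B12 in the gut. Megalin is a giant member of the low density lipoprotein (LDL) receptor family that takes up vitamin carriers, lipoproteins and hormones in the kidney proximal tubule and the yolk sac, where it works beside cubilin. The chaperone encoded by Lrpap1 binds megalin and its relatives in the secretory pathway and keeps ligands off them until they reach the surface. Dab2 joins the tails of megalin and amnionless to clathrin coats.

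The window of 250 bases before the annotated start of Cubn is shown because Cubn is the member with the largest difference, and those of its partners Amn and Lrp2 are shown to set beside it. The sequences are from RefSeq (GRCm38.p6), 5′ to 3′ on the strand of the gene: Cubn at chr2:13491877-13492126 on the minus strand, Amn at chr12:111270846-111271095 on the plus strand and Lrp2 at chr2:69586030-69586279 on the minus strand. Capitals mark any of 8 heptamers of the forkhead core, searched on both strands: TGTTTAC, and the variants of it with A as the second base, G as the sixth or T as the last, in any combination.
Cubn: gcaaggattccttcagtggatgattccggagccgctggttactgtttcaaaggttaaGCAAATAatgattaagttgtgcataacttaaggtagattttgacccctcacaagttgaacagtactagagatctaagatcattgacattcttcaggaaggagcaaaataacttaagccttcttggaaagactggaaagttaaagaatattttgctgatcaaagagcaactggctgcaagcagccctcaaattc
Amn: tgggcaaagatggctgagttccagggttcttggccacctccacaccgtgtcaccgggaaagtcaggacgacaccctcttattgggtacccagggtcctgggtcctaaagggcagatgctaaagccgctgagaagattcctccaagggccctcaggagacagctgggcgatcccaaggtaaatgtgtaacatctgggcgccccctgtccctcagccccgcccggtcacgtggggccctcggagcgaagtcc
Lrp2: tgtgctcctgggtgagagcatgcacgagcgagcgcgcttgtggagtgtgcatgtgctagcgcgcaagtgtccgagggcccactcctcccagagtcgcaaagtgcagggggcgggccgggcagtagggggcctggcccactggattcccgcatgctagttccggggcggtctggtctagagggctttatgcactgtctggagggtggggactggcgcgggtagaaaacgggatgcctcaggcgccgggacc
The Cubn window held 1 match, TATTTGC on the opposite strand (printed as GCAAATA), between 193 and 187 bases before the start. The windows of Amn, Lrp2 and Lrpap1 held 0. Dab2 has 2 annotated starts in the table, whose windows held 0 and 1 matches. At least 1 match was held by 24.9% of all 32851 windows, and among the 3871 windows with a GC content no higher than that of Cubn by 54.6%. The GC content was 39.6% for Cubn, 61.2% for Amn and 66.4% for Lrp2, against a median of 52.4% over all windows. The Cubn window held 2 CG dinucleotides, against 11 for Amn and 18 for Lrp2. A match is a run of letters and does not show a binding site.

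The arrays had medians of 8.21 to 8.23 on the log2 scale and correlated in pairs at 0.9947 to 0.9985 across probe sets. Control 3 stood apart in 2 respects. Xist, which is transcribed from the silenced X of females, was at 12.83 in control 3 and at 6.00 to 6.23 on the other arrays, and the Y-linked Ddx3y stood at 5.89 there against 9.45 to 10.64, so the sex of the embryos was not balanced between the groups. Albumin (Alb), a product of liver, stood at 10.43 in control 3 and at 6.91 to 7.71 elsewhere. Values without control 3 are therefore given beside each member and each pathway list, and beside a gene named from a list where its difference then moved by more than 1.5 times or its call ended. Of the targeted genes, Foxp4 fell (log2 difference -0.41, SE 0.05, limma adjusted p = 0.0190) and Foxp1 had a log2 difference of -0.27 (SE 0.05, adjusted p = 0.0884), and the Foxp4 call ended without control 2, mutant 2 or mutant 3 and with the replicate block (limma adjusted p = 0.0535 to 0.130). Where these probe sets lie relative to the deleted exons is not given, so they do not check the labels.

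Cubilin expression was higher in every mutant lung than in any control lung. The log2 level of Cubn was 8.87, 8.95 and 8.62 in controls 1 to 3, and 9.50, 9.60 and 9.39 in mutants 1 to 3. The groups did not overlap, and the lowest mutant stood 0.44 above the highest control. Relative to the geometric mean of the controls, the mutants stood at 161%, 173% and 149%, and the controls at 104%, 110% and 87.6%. The means were 8.81 ± 0.17 and 9.50 ± 0.11 (SD, n = 3 each), a log2 difference of 0.69 (SE 0.09), which is 1.61-fold with a 95% interval of 1.38 to 1.87. The difference was 2.08 times the whole range of the controls. By size it ranked 146th of 28815 probe sets, and 104th among those higher in mutants. The authors' deposited table, made from the same arrays and so no separate evidence, gave Cubn as 1.61-fold higher. Its q-value there was 0.897%, where 1.72% of probe sets had one under 5%. Control 3 had the lowest level, and without it the log2 difference was 0.59 (SE 0.07).

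Amnionless, the obligate partner of cubilin, did not share this pattern. On the log2 scale Amn stood at 7.79, 7.83 and 8.01 in controls 1 to 3, and 7.72, 7.69 and 7.79 in mutants 1 to 3. Every one of these levels lay under the array medians of 8.21 to 8.23. No detection values were used, so a change of a signal this dim could be missed. The mutants lay just under the controls, with 0.0044 between the highest mutant and the lowest control, far less than the spread within either group. The means were 7.88 ± 0.12 and 7.73 ± 0.05 (SD, n = 3 each), a log2 difference of -0.14 (SE 0.07, 95% interval -0.30 to 0.01), or 0.905 times the control level. Control 3 was the highest array for Amn and the lowest for Cubn. Without control 3 the difference of Amn was -0.08 (SE 0.05). The difference between Amn and Cubn was not tested, because the choice of genes rested on these values.

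**Figure D1:**
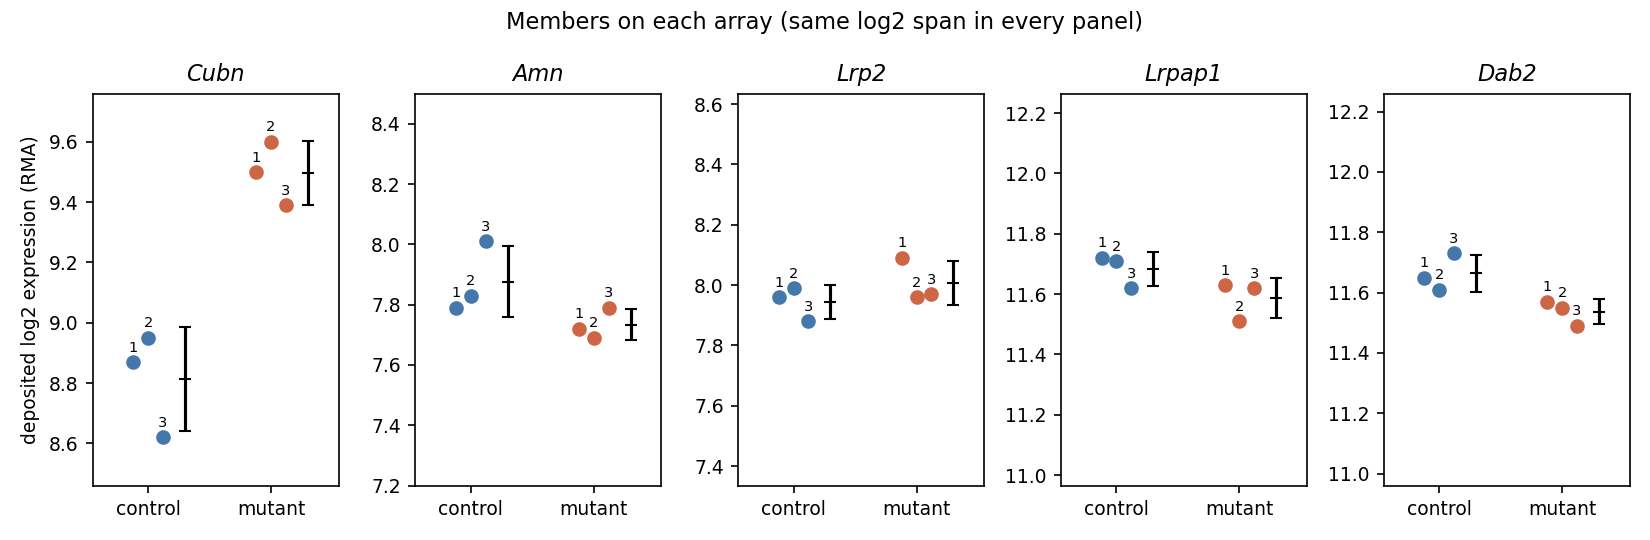
Deposited log2 expression of the 5 genes on each array (vertical axis, the same span in every panel), controls in blue and mutants in orange, numbered by replicate, with bars for the mean and SD of 3 arrays. Cubn stands at 8.62 to 8.95 in controls and 9.39 to 9.60 in mutants, and the other 4 genes move by at most 0.14 between group means.

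Megalin, the large endocytic receptor that works beside cubilin in kidney, differed by about the spread of the arrays. Lrp2 stood at a log2 level of 7.96, 7.99 and 7.88 in controls 1 to 3 and 8.09, 7.96 and 7.97 in mutants 1 to 3. Like Amn, it lay under the array median on every array, so a change could likewise be missed. The groups overlapped, with mutants 2 and 3 among the controls and mutant 1 above them. The means were 7.94 ± 0.06 and 8.01 ± 0.07 (SD, n = 3 each), a log2 difference of 0.06 (SE 0.06), or 1.05-fold with a 95% interval of 0.956 to 1.14. Without control 3 it was 0.03 (SE 0.06).

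The cytoplasmic and secretory partners lay slightly lower in mutants. Lrpap1, the chaperone of megalin, stood at a log2 level of 11.72, 11.71 and 11.62 in controls 1 to 3 and 11.63, 11.51 and 11.62 in mutants 1 to 3. Control 3 stood among the mutants, so the groups overlapped. The means were 11.68 ± 0.05 and 11.59 ± 0.07 (SD, n = 3 each). The log2 difference was -0.10 (SE 0.05), or 0.935-fold with a 95% interval of 0.858 to 1.02, and it was -0.13 (SE 0.06) without control 3. The log2 level of Dab2, the clathrin adaptor, was 11.65, 11.61 and 11.73 in controls 1 to 3 and 11.57, 11.55 and 11.49 in mutants 1 to 3. All mutants lay under all controls, by 0.037 at the nearest, with means of 11.66 ± 0.06 and 11.54 ± 0.04 (SD, n = 3 each). The log2 difference of Dab2 was -0.12 (SE 0.05), or 0.918-fold with a 95% interval of 0.846 to 0.997, and it was -0.09 (SE 0.05) without control 3. Dab2 is also made by macrophages, and in whole lung fewer cells of a type and less RNA per cell cannot be told apart, for this gene as for the others.

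Across the 5 genes, 1 passed an adjusted p under 0.05 in the limma fit over all probe sets, Cubn, where 0.774% of probe sets passed in either direction with 0.514% higher and 0.26% lower in mutants. The other 4 did not pass. For 3 of the 5, Cubn, Amn and Dab2, the groups did not overlap, as they did not for 18.0% of all probe sets. By group means 2 were higher and 3 lower, and the median log2 difference was -0.10, against -0.0176 over all probe sets. Since these genes were picked with the comparison known, nothing is read from these counts. Cubn no longer passed without control 1, control 2, mutant 1 or mutant 2, or with the replicate number as a block, although its log2 difference stayed between 0.59 and 0.75 in the 6 fits that each left out 1 array. Its residual SD, 0.143, was at least that of 89.9% of probe sets.

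**Figure D2:**
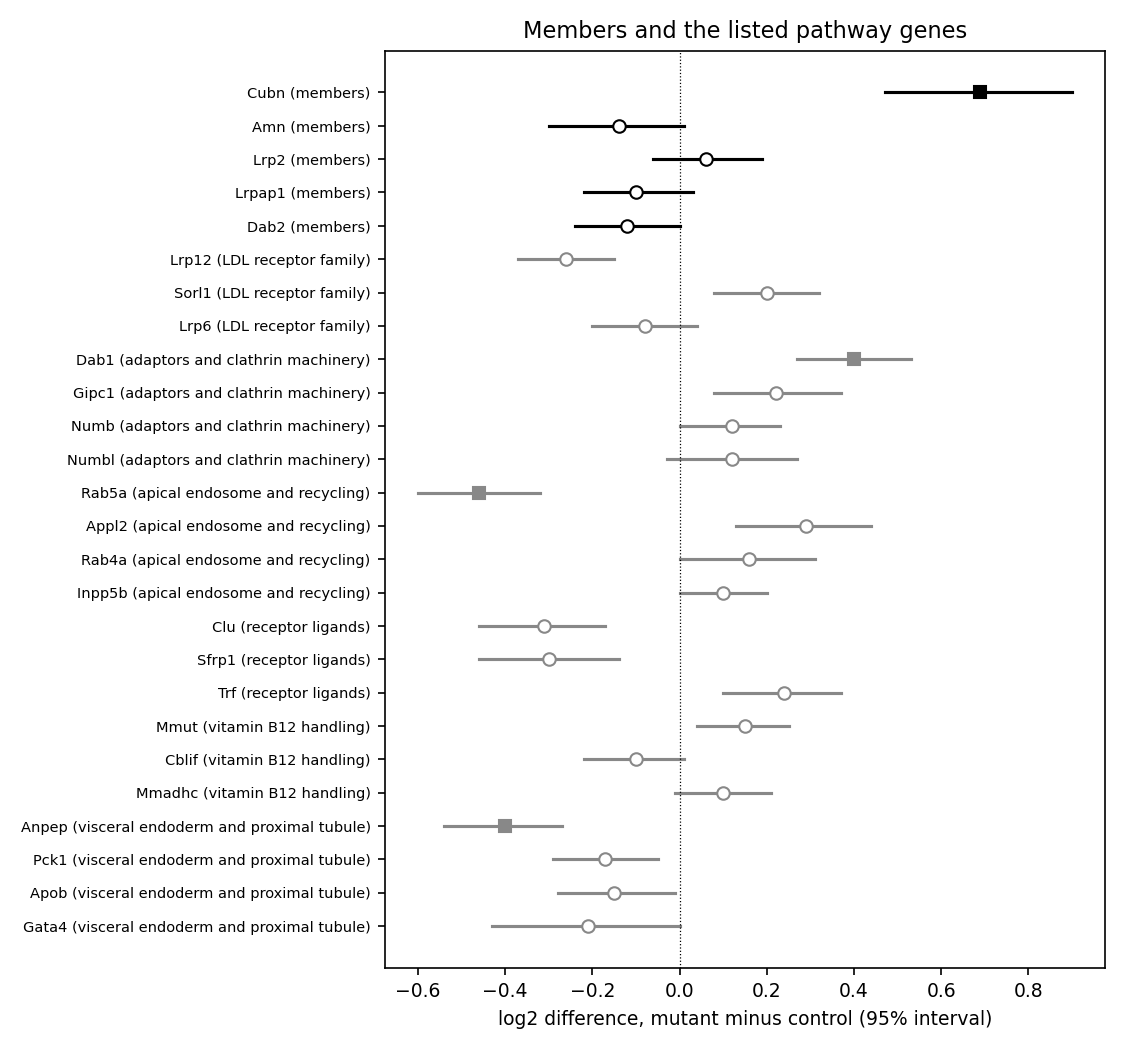
Log2 difference of mutant minus control (horizontal axis) with its 95% interval, for the 5 genes in black and for named genes of the 6 pathway lists in grey; filled squares passed an adjusted p under 0.05 over all probe sets and open circles did not. The genes of the lists are those taken by the rule for named genes, and among these Cubn at 0.69 lies to the right of every other interval, and Amn, Lrp2 and Lrpap1 have intervals that include 0.

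The difference of Cubn was not seen in its neighbours on chromosome 2. Among the 5 measured genes on either side, log2 differences ran from -0.25 to -0.00 and 0 of 10 passed (limma), where 0.642% of all genes passed in either direction, 0.342% as higher and 0.301% as lower. The nearest, Rsu1 and Trdmt1, had log2 differences of -0.06 (limma adjusted p = 0.589) and -0.01 (0.973), and Vim, which encodes the intermediate filament vimentin of mesenchyme, had -0.02 (0.894). The lowest, the sialyltransferase gene St8sia6, was at -0.25 (0.0772). Lrp2 lies on chromosome 2 too, and 0 of its 10 neighbours passed, with log2 differences of -0.20 to 0.12. Of the 10 neighbours of Amn and of Lrpap1, 0 passed in each, at -0.08 to 0.07 and -0.33 to 0.06. Beside Dab2 1 of 10 passed, the adjacent prostaglandin receptor gene Ptger4, which fell in the direction of Dab2 itself (log2 difference -0.46, SE 0.04, limma adjusted p = 0.0125), while the others ran up to 0.14. The Ptger4 call ended without control 2 (limma adjusted p = 0.0648) or mutant 2 (0.0608) and with the replicate block (0.0849). None of the 5 genes lies on chromosome 6 or 17, which carry Foxp1 and Foxp4.

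**Figure D3:**
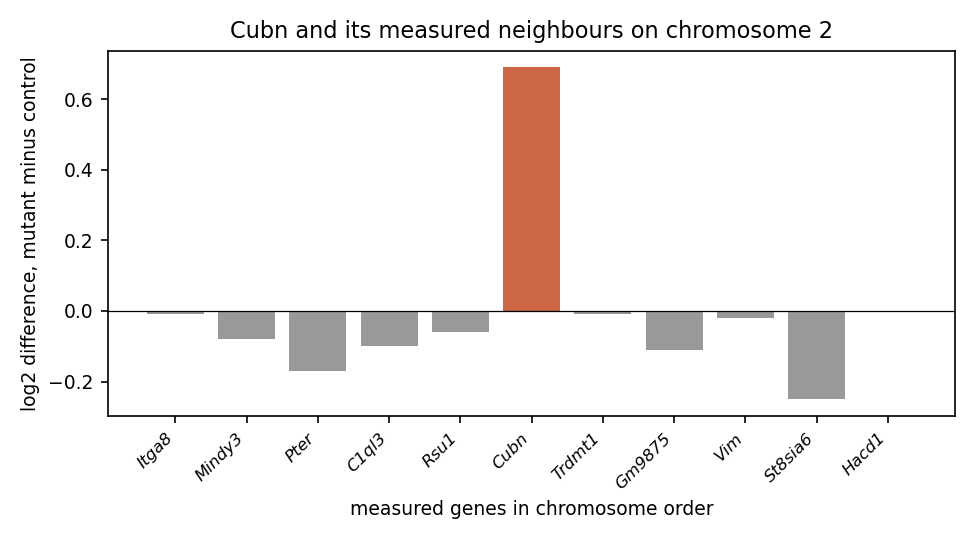
Log2 difference of mutant minus control (vertical axis) for Cubn and the 5 measured genes on each side of it in chromosome order (horizontal axis, equal steps). Cubn stands at 0.69 and its 10 neighbours between -0.25 and -0.00.

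Genes whose levels followed those of Cubn array by array were sought among 19618 genes by the root mean square difference of log2 values over the 6 arrays, after the mean of each gene was subtracted. The 5 nearest were Rmrp, the RNA component of the RNase MRP particle (0.0444), Rnu2-10, a U2 small nuclear RNA gene (0.0873), Slfn3, a Schlafen family gene (0.0960), Pcsk6, a proprotein convertase (0.0984), and Plac9a (0.102). For scale, the Cubn profile itself had a root mean square of 0.362 about its mean. The log2 level of Rmrp was 11.85, 11.98 and 11.62 in controls 1 to 3 and 12.41, 12.58 and 12.30 in mutants 1 to 3. In Cubn, Rmrp, Rnu2-10 and Slfn3 alike, control 3 was the lowest array, control 2 the highest control and mutant 2 the highest of all. In Pcsk6 and Plac9a control 3 was also the lowest, but mutant 1 was the highest. Rmrp and Rnu2-10 are noncoding. Whether the likeness of any of the 5 genes to Cubn has a shared technical source was not tested.

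The log2 differences of these genes, mutant minus control, were 0.61 for Rmrp (SE 0.10), 0.69 for Rnu2-10 (SE 0.13), 0.58 for Slfn3 (SE 0.11), 0.64 for Pcsk6 (SE 0.09) and 0.62 for Plac9a (SE 0.08). They were selected for resembling Cubn, which fixes their direction, so they are given with no test. A second, dimmer probe set of Slfn3 had a log2 difference of -0.09, and the Rnu2 probe sets come from near-identical copies, so both names are uncertain. The other members were much less like Cubn: Lrp2 differed from it by 0.327 and ranked 2385th, Lrpap1 by 0.410, Dab2 by 0.429 and Amn by 0.455.

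**Figure D4:**
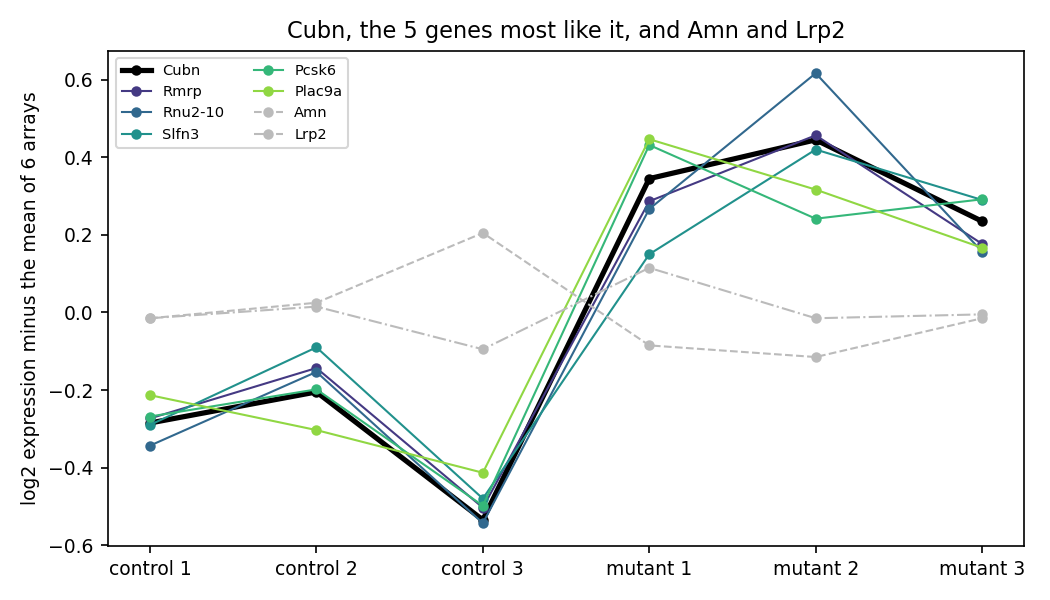
Log2 level minus the mean of the 6 arrays (vertical axis) on each array (horizontal axis) for Cubn in black, the 5 genes most like it in colour, and Amn and Lrp2 in grey; lines only join the points of 1 gene, since replicates have no order. Cubn and Rmrp differ by a root mean square of 0.0444, while Amn is highest in control 3, where Cubn is lowest.

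The wider pathway was described through 6 gene lists, which were drawn up by function, with earlier results of these data known. They are tested by the same fit, in which 0.642% of all genes passed, 0.342% as higher and 0.301% as lower. An unadjusted p under 0.05 was held by 11.7% of all genes. Of 14 measured relatives of megalin in the LDL receptor family, 0 passed (limma; 2 had an unadjusted p under 0.05), and 1, Lrp12, passed with a trended robust prior. The median log2 difference was -0.03, against -0.0217 over all genes, and without control 3 it was -0.03, against -0.0161. Lrp12 went from 10.49, 10.59 and 10.54 in controls to 10.23, 10.28 and 10.32 in mutants (log2 difference -0.26, SE 0.05, limma adjusted p = 0.0802). Every mutant lay under every control. Sorl1, a sorting receptor, had a log2 difference of 0.20 (limma adjusted p = 0.209) and Lrp6, a Wnt co-receptor, one of -0.08 (0.570).

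Among 23 genes of adaptors and the clathrin coat, 1 rose, 0 fell and 22 did not pass, where 0.642% of all genes passed. The median log2 difference was 0.02 (-0.01 and 0 calls without control 3). The gene that rose was Dab1, a relative of Dab2 best known as the adaptor of reelin receptors in neurons. Its log2 level was 7.97, 7.87 and 7.97 in controls and 8.25, 8.35 and 8.40 in mutants (log2 difference 0.40, SE 0.06, limma adjusted p = 0.0301). Every mutant stood above every control. The call ended without any 1 array other than mutant 1 (limma adjusted p = 0.0605 to 0.119) and with the replicate block (0.138). Gipc1, which binds the megalin tail, had a log2 difference of 0.22 (limma adjusted p = 0.234), Numb one of 0.12 (0.407) and Numbl one of 0.12 (0.513), both adaptors of the Notch pathway.

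Among 20 genes of the apical endosome and of recycling, 0 rose, 1 fell and 19 did not pass, where 0.642% of all genes passed. The median log2 difference was 0.01 (0.01 and 1 call without control 3). The gene that fell was Rab5a, the small GTPase of early endosomes. In log2 units Rab5a stood at 11.19, 11.04 and 10.99 in controls and 10.64, 10.60 and 10.60 in mutants (log2 difference -0.46, SE 0.06, limma adjusted p = 0.0291), or 1.38-fold lower. The groups stood well apart, by more than the range within either. Rab5a lies on chromosome 17, 29 measured genes from the targeted Foxp4, so the deletion and strain-derived sequence linked to the floxed allele cannot be told apart. Of the 28 measured genes between them 1 passed (3.57%), against 0.783% of the measured genes on chromosome 17. It was Tspo2 (log2 difference -0.57, limma adjusted p = 0.0160). The Tspo2 call ended without control 2 or mutant 2 and with the replicate block (limma adjusted p = 0.112). The Rab5a call ended without control 2 (limma adjusted p = 0.0797), mutant 1 (0.0706), mutant 2 (0.0886) or mutant 3 (0.0857), and with the replicate block (0.0940). Appl2, an adaptor of early endosomes, had a log2 difference of 0.29 (limma adjusted p = 0.152), the recycling GTPase Rab4a one of 0.16 (0.416) and the phosphatase Inpp5b one of 0.10 (0.428).

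Among 32 genes for ligands of cubilin or megalin, 0 passed (limma; 6 had an unadjusted p under 0.05), and 1, Clu, passed with a trended robust prior. Tcn2 and Cblif are also in the list of vitamin B12 handling. Afp, Ttr, Apob and Rbp4 are also in that of visceral endoderm and proximal tubule, so these lists are not independent. Of the 32 ligand genes, 24 lay below 0, with a median log2 difference of -0.10, against -0.0217 over all genes. The ligand list holds products of liver, which stood high in control 3. Without that array 24 still lay below 0, but the median was -0.06, against -0.0161 over all genes. Among these products, named after their values were seen, Alb went from -0.84 to 0.33, Gc from -0.22 to -0.06, Ttr from -0.21 to -0.04 and Apoa1 from -0.16 to -0.03 in log2 difference when control 3 was left out. The chaperone Clu, a megalin ligand, had a log2 difference of -0.31 (limma adjusted p = 0.0910), the Wnt antagonist Sfrp1 one of -0.30 (0.142) and Trf, encoding the cubilin ligand transferrin, one of 0.24 (0.178). The summed linear level of the list was 40476 to 41405 in controls and 38306 to 38938 in mutants.

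Among the genes of vitamin B12 handling no change was called. Of 14 measured, 0 passed (limma; 1 had an unadjusted p under 0.05), 7 lay above and 7 below 0, and the median log2 difference was 0.000397. Without control 3, 10 of the 14 lay below 0, with a median of -0.02 and 0 calls. Mmut, the mitochondrial enzyme that uses the vitamin, had a log2 difference of 0.15 (limma adjusted p = 0.266), Mmadhc, which steers the vitamin within cells, one of 0.10 (0.459), and Cblif, which encodes intrinsic factor, one of -0.10 (0.457). Cd320, the receptor by which most cells take up the vitamin, had a log2 difference of -0.04 (0.822) and was named after its value was seen.

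Genes of visceral endoderm and proximal tubule, tissues in which cubilin and megalin are abundant, did not rise. Of 24 measured, 0 rose, 1 fell and 23 did not pass, where 0.642% of all genes passed. Of the 24, 18 lay below 0, and the median log2 difference was -0.08, against -0.0217 over all genes. Without control 3, 16 lay below 0, with a median of -0.05 and 0 calls. The one that fell was Anpep, an aminopeptidase of brush borders. Log2 levels of Anpep were 8.42, 8.37 and 8.49 in controls and 7.94, 8.10 and 8.02 in mutants (log2 difference -0.40, SE 0.06, limma adjusted p = 0.0301). Every mutant lay under every control, in the opposite direction to Cubn. The call ended without any 1 of the 6 arrays (limma adjusted p = 0.0639 to 0.112) and with the replicate block (0.140). Pck1 had a log2 difference of -0.17 (limma adjusted p = 0.266), Apob one of -0.15 (0.383) and Gata4, an endoderm transcription factor, one of -0.21 (0.430), which was -0.13 without control 3.

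**Figure D5:**
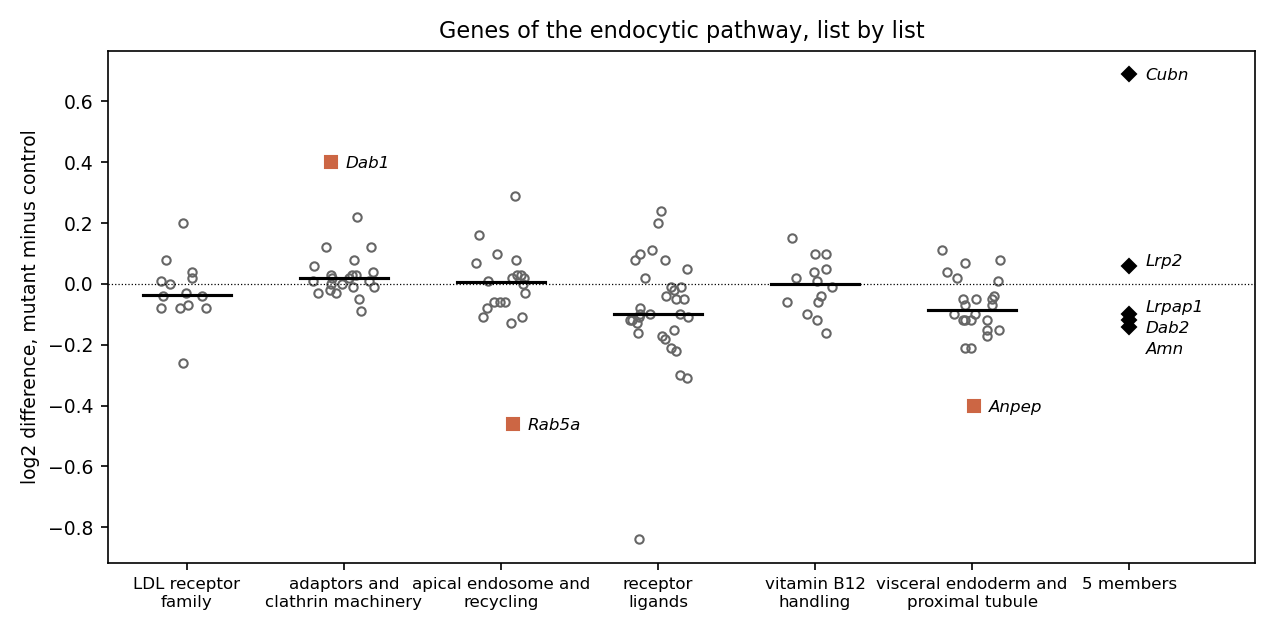
Log2 difference of mutant minus control (vertical axis) for each measured gene of the 6 lists and for the 5 members (horizontal axis); orange squares passed an adjusted p under 0.05, open circles did not, diamonds are the members, and bars mark list medians. Dab1 at 0.40, Rab5a at -0.46 and Anpep at -0.40 are the genes of the lists that passed, and the lowest open circle is Alb at -0.84, which stood high in control 3.

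Markers of the cell types in the samples were read beside these values. Of 10 lung epithelial markers 0 passed (limma; 2 had an unadjusted p under 0.05) and 8 lay above 0, with a median log2 difference of 0.05, also without control 3. Sftpc, which encodes surfactant protein C of distal epithelium, stood at 12.85, 12.77 and 12.43 in controls and 13.10, 13.02 and 13.06 in mutants (log2 difference 0.38, SE 0.10, limma adjusted p = 0.212, and 0.26 without control 3). Etv5, a transcription factor of the distal tips, had a log2 difference of 0.12 (limma adjusted p = 0.321), and in both genes every mutant lay above every control. The summed linear level of the 10 markers was 37945 to 40763 in controls and 41489 to 42846 in mutants. Sftpc had both the largest log2 difference of the 10 and the highest level in mutants, so it contributed most to the rise of the sum. The sum moved the same way as Cubn, and its part in the Cubn difference was not tested. The 2 that lay below 0 were Epcam and Cdh1, which mark epithelium as a whole, with log2 differences of -0.08 (limma adjusted p = 0.662) and -0.07 (0.745), or -0.10 and -0.12 without control 3. Nkx2-1, the transcription factor that defines lung epithelium, stood at 10.99 to 11.14 in every array.

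Markers of mesothelium, the covering of the lung, had 6 of 6 below 0. The 1 that fell, where 0.642% of all genes passed, was the keratin gene Krt19 (log2 difference -0.42, SE 0.07, limma adjusted p = 0.0382). That call ended without any 1 array other than mutant 1, with the replicate block (0.0849) and with identical probe sets counted once (0.0501). RNA of whole lung does not show which cells made Krt19, so its fall may not be that of mesothelium. The other 5 did not pass, at log2 differences of -0.26 (Gpm6a), -0.18 (Lrrn4), -0.15 (Upk3b), -0.05 (Wt1) and -0.02 (Msln). The summed linear level, Krt19 included, was 5006 to 5193 in controls and 4177 to 4739 in mutants. Mesenchymal markers had 7 of 8 below 0 and 0 that passed (limma; 2 had an unadjusted p under 0.05), with sums of 31776 to 32328 and 29461 to 31628. Both moved the same way as Dab2 and Amn, and their part in those values was not tested. Of 8 macrophage markers and 6 endothelial markers 0 passed (limma, with 1 macrophage marker at an unadjusted p under 0.05), and their sums overlapped between groups. Erythroid and liver sums overlapped as well, with 0 of 6 passing in each (limma; 0 had an unadjusted p under 0.05), and the liver sum was 2380 in control 3 against 748 to 933 elsewhere.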

How the data were processed

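Each deposited value is the log2 expression of a probe set, made by the authors with RMA (robust multi-array average) per the submitters' processing notes. For array type and annotation version nothing is stated in the labels. The 6 array columns were identical in both deposited tables. The annotated table also holds, per the file headers, the authors' signed fold, a score, an unadjusted p-value and a percent q-value, from a test that is not stated. Symbols were updated through RefSeq tables (GRCm38.p6) by accession for 20525 probe sets, gene ID for 2499, current symbol for 1089 and older symbol for 389; 1026 kept the deposited name and 3287 had none.

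Mutant minus control differences were fitted with limma 3.58.1 in R 4.3.3 (lmFit, eBayes, 2-sided, no covariate or filter), with p-values adjusted by Benjamini-Hochberg across the 28815 probe sets, called under 0.05, and with intervals at 95%. The fit was tested on simulated data. Lists used 1 probe set per symbol, that with the highest mean. The rule for named genes took, in each list, those that passed and the 3 smallest p among the rest, plus the 5 genes most like Cubn (Gm, Rik and LOC names left out), the members and the targeted genes. 1 listed gene is not reported here. The members and lists were chosen with earlier results of these data known; the neighbours and the motif search were added after values were seen. Separate embryos are stated by the design, no 2 arrays shared more than 24 identical values, and 3 arrays per group limit the precision. Alternatives were a filter at the 30th percentile, quantile normalization, median centring, a trended robust prior, array weights, the replicate block and leaving out each array. Figures used matplotlib 3.10.9 in Python 3.11.15.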

Additional observations from a re-analysis of the deposited data

How the results depend on the processing

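The log2 differences of the 5 members moved by less than their residual SD under every alternative run. That SD describes single arrays, and for Cubn it was 0.143, wider than the SE of 0.09. Under array weights Cubn went from 0.69 to 0.56, a move larger than that SE, and it stood at 0.59 to 0.75 without 1 array. The other members without 1 array ran from -0.19 to -0.08 for Amn, 0.02 to 0.09 for Lrp2, -0.13 to -0.06 for Lrpap1 and -0.15 to -0.09 for Dab2. Of the 5 members 1 passed in the fit reported, and 0 to 1 without 1 array and 0 with the replicate block. Over all probe sets 223 passed in that fit, 1748 with array weights, 7 with the replicate block, 138 with identical probe sets counted once (chosen after seeing the data) and 496 by the authors' deposited q-value under 5%. With 1 array left out it was 11 (mutant 2) to 152 (control 1), with 18 for control 2, 102 for control 3, 136 for mutant 1 and 147 for mutant 3. The cause of these shifts was not tested. In the LDL receptor family the trended robust prior gave 1 call and array weights 2, among ligands 1 and 2, in vitamin B12 handling 1 with array weights, and in the apical endosome 2 with array weights. The replicate block gave 0 in the adaptor, endosome and visceral endoderm lists, and leaving out 1 array gave 0 to 1 in the adaptor and endosome lists and 0 in the visceral endoderm list. Of 337 alternative values for 26 tested genes, 292 kept their side of the threshold, 35 lost a call, 10 gained one and 0 changed sign. All 35 losses came from genes that passed in the fit reported, since only those could lose a call. Anpep and Krt19 each lost the call in 7 alternatives and kept it in 6. Dab1 lost it in 6 and kept it in 7, and Rab5a lost it in 5 and kept it in 8. Foxp4 lost it in 4 and kept it in 9, and Tspo2 and Ptger4 each lost it in 3 and kept it in 10. The labels do not state that replicate numbers pair the samples. Deviations of arrays with the same number correlated at -0.194, 0.0395 and -0.185, and of arrays with different numbers at -0.0459 to 0.207. For Cubn the block left the log2 difference at 0.69, with an SE of 0.05 against 0.09 and a limma adjusted p of 0.0534. Why fewer probe sets passed with the block was not tested. No detection values were used, so changes of dim probe sets could be missed.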
